A study of Mus musculus with 80 samples.

Results

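The 10 heat shock protein and chaperone genes described here are Hspa1a, Hspa1b, Hspa8, Hsph1, Dnajb1, Hsp90aa1, Hsp90ab1, Hspb1, Hspd1 and Hspe1, taken by name from the 15919 genes of the sort comparison and the 16000 genes of the cell preparation comparison. All 10 were measured in all 80 libraries and passed the filter on low counts in every fit. The question behind the design was how the way of isolating microglia from mouse brain changes the RNA that is read from them, and these genes belong to the stress response that such handling can start.

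Every mouse carried 1 Cx3cr1-cre/ERT2 allele and 1 NuTRAP allele and was given tamoxifen (100 mg/kg daily) at 3 months of age, with brains taken between 5 and 8 months. The tamoxifen-dependent Cre is driven by the Cx3cr1 promoter, which is active in microglia and also in border-associated macrophages, and the recombined NuTRAP allele puts an eGFP tag on the ribosomes of those cells. Translating ribosome affinity purification (TRAP) pulls these ribosomes and their bound RNA out of a homogenate, and the Input is the RNA of the same homogenate before the pull-down. The sort comparison held 48 libraries from 6 preparations, each with an Input and a TRAP library per mouse. Tissue was brain homogenized directly, and Cell was a suspension made with a papain-based enzyme mix and mechanical dissociation at 37 °C for 30 min. The 4 sorts started from such a suspension: autoMACS (CD11b magnetic beads), Tyto (a cartridge-based cell sorter), autoMACS to Tyto (beads and then the cartridge sorter) and FACSAria (a conventional cell sorter). Tyto had 5 mice, autoMACS to Tyto had 3, and the other preparations had 4. The cell preparation comparison held 32 libraries, 4 mice for each of Tissue, Dounce (mechanical dissociation at 4 °C followed by Percoll), Cell (-) Inhibitors and Cell (+) Inhibitors, again with Input and TRAP. The inhibitors were actinomycin D at 5 µg/ml and triptolide at 10 µM, which block transcription, and anisomycin at 10 µg/ml, which blocks translation. They were present during the 37 °C dissociation and absent from its (-) Inhibitors control.

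Several preparations shared mice. Tissue and Cell of the sort comparison came from the same 4 animals, (-) and (+) Inhibitors from another 4, and autoMACS and autoMACS to Tyto shared 3. In 3 animals, Tyto took the right side of the brain and FACSAria the left, so sorter and side cannot be told apart within them. The Tissue libraries of the cell preparation comparison came from the Tissue animals of the sort comparison, so there Tissue and the dissociated preparations were different mice. Dounce came from other mice than (-) and (+) Inhibitors. The sorts came from other mice than Tissue and Cell of the sort comparison. In contrasts across these sets of mice, the effect of preparation cannot be told apart from that of the animal set. The 2 count tables were normalised separately, so differences were tested only within a table. Total counts per library ran from 7129464 to 18514919 in Input and from 11795698 to 20168116 in TRAP of the sort comparison, and from 5107604 to 11262747 and from 2471448 to 14650287 for the 2 fractions of the cell preparation comparison, with the fewest in Dounce-TRAP.

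The labels were checked with 8 markers each of microglia, neurons and endothelial cells, none of which was at 0 throughout a group. Summed microglial markers had a group median of 264 and 322 CPM (counts scaled to library size) in the 2 sets of Tissue-Input, 5714 and 6886 in Tissue-TRAP, 32034 to 38362 in Cell-TRAP and 38648 to 41099 in TRAP of the 4 sorts. Neuronal markers fell along the same order, from 5424 and 6343 CPM in Tissue-TRAP to 86.6 to 133 in Cell-TRAP and 4.44 to 6.26 in the sorts. Dounce-TRAP held 35466 CPM of microglial and 1157 CPM of neuronal markers. Neuronal as well as microglial markers were thus read in Tissue-TRAP, and marker levels are set beside the results that move with them. In bulk libraries such as these, fewer cells of a type and less RNA per cell cannot be told apart.

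Heat shock proteins are molecular chaperones that bind unfolded proteins and help them to fold, stay soluble or be degraded. When misfolded protein accumulates, as in heat, the transcription factor Hsf1 is released from chaperone inhibition, binds heat shock elements in promoters (inverted repeats of the unit GAA) and drives transcription of the inducible members within minutes. Hspa1a and Hspa1b encode the strictly inducible Hsp70 proteins, Hspa8 encodes their constitutive counterpart Hsc70, Dnajb1 encodes a J-domain protein (Hsp40) that delivers substrates and stimulates the Hsp70 ATPase, and Hsph1 encodes Hsp110, a nucleotide exchange factor of Hsp70. Hsp90aa1 and Hsp90ab1 are the inducible and the constitutive cytosolic Hsp90, which mature kinases and hormone receptors, Hspb1 is the small heat shock protein Hsp27, and Hspd1 and Hspe1 form the mitochondrial Hsp60 and Hsp10 chaperonin.

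The promoters are shown because several of the genes, Hspa1a, Hspa1b and Dnajb1 among them, are textbook Hsf1 targets. RefSeq (GRCm38.p6) promoter windows were at hand for 7 of the 10 genes, and each run below is the 250 bases before the transcription start, 5′ to 3′ on the gene's strand. The search was for a pair of facing GAA units, GAANNTTC or TTCNNGAA, on both strands (each of these reads the same on both), and capitals mark the matches. Overlapping matches merge into 1 capital run. The windows are chr17:34972157-34972406 (minus strand) for Hspa1a, chr17:34959239-34959488 (minus) for Hspa1b, chr8:83607925-83608174 (plus) for Dnajb1, chr5:149636337-149636586 (minus) for Hsph1, chr5:135887669-135887918 (plus) for Hspb1 and chr1:55087898-55088147 (plus) for Hspe1.
Hspa1a: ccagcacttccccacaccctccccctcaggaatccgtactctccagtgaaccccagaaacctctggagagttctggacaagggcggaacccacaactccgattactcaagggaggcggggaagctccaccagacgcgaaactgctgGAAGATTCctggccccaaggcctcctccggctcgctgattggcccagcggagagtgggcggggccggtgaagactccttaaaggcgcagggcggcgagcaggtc
Hspa1b: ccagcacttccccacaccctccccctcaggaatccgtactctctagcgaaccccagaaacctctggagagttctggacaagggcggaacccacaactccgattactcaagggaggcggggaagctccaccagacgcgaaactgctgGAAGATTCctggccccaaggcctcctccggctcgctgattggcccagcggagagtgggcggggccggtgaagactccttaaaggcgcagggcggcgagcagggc
Dnajb1: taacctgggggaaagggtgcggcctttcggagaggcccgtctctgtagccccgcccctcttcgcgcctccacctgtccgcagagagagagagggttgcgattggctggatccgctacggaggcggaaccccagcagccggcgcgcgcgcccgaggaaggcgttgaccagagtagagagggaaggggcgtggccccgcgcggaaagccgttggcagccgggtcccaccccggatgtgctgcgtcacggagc
Hsph1: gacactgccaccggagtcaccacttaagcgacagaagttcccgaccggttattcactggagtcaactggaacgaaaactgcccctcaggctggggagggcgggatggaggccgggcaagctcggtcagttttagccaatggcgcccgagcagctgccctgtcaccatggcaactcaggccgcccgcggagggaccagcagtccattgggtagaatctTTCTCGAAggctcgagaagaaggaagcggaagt
Hspb1: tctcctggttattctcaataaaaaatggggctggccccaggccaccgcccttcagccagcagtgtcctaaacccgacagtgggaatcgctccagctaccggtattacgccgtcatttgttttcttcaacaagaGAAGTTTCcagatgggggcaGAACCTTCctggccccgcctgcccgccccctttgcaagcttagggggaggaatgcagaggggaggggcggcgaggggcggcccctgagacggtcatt
Hspe1: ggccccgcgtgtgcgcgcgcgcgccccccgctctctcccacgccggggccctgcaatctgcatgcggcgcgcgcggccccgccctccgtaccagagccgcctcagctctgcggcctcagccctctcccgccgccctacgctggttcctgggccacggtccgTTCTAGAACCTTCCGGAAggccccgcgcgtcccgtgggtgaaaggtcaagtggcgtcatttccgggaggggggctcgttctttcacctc

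The 7 genes had 10 windows, of which 7 held a match, where 12.84% of all 32851 mouse promoter windows of this length did. These 7 are not independent, since they include a near-identical pair of genes, overlapping windows of Hsph1 and a pair of genes that share a run. The Hspa1a and Hspa1b windows were the same in 247 of 250 bases and differed by C44T, T47C and T249G (the Hspa1a base, the position counted from 1 at the 5′ end of the run, then the Hspa1b base), with the match GAAGATTC 104 bases before the start in both. Hsph1 held TTCTCGAA 33 bases before its start, and Hspb1 held 2 matches 117 and 97 bases before. Hspe1 and Hspd1 are divergent genes with windows that share 215 bases, and both read through the same 18-base run of 4 contiguous alternating units, a pattern found in 7 of the 32851 windows (0.0213%). Dnajb1 had no match in the window printed, which says only that these letters are not in it. A match is a description of sequence and not evidence of binding.

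Hspa1a and Hspa1b lie next to each other on chromosome 17 (GRCm38.p6 34969359 to 34972156 and 34956429 to 34959238, minus strand) and are near-identical copies. Of the 50-base stretches of their transcripts, 58.81% of those of Hspa1a and 62.31% of those of Hspa1b also occur in the other gene, so how the authors' counting split reads between them is uncertain. For that reason each comparison was also made on their summed counts.

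Per kilobase of exon, the order of the 10 genes differed between preparations. In Tissue-TRAP of the cell preparation comparison, Hspa8 (584 ± 52.4 CPM per kb, mean ± SD, n = 4) and Hsp90ab1 (567 ± 89.1) led and their libraries overlapped. They were followed by Hsp90aa1 at 223 ± 32.5, Hspd1 at 69.6 ± 9.60 and Hspe1 at 50.9 ± 4.03. Hsph1 (31.1 ± 5.58), Dnajb1 (26.4 ± 6.68), Hspb1 (24.1 ± 10.2), Hspa1b (7.36 ± 5.83) and Hspa1a (7.12 ± 5.42) came last, each overlapping its neighbour. In Cell-TRAP (-) Inhibitors, Hspa8 (506 ± 80.2) was above Hsp90ab1 (420 ± 23.7), and Dnajb1 (73.2 ± 13.7), Hsp90aa1 (67.8 ± 2.21), Hspa1b (66.1 ± 10.1), Hspa1a (55.8 ± 8.07) and Hspd1 (53.6 ± 1.73) followed in an overlapping row, all above Hspb1 (32.9 ± 11.8). With inhibitors, Hspa1b (4.44 ± 2.64) and Hspa1a (2.63 ± 1.25) were again the lowest of the 10, below Hsph1 at 7.96 ± 1.07.

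**Figure D1:**
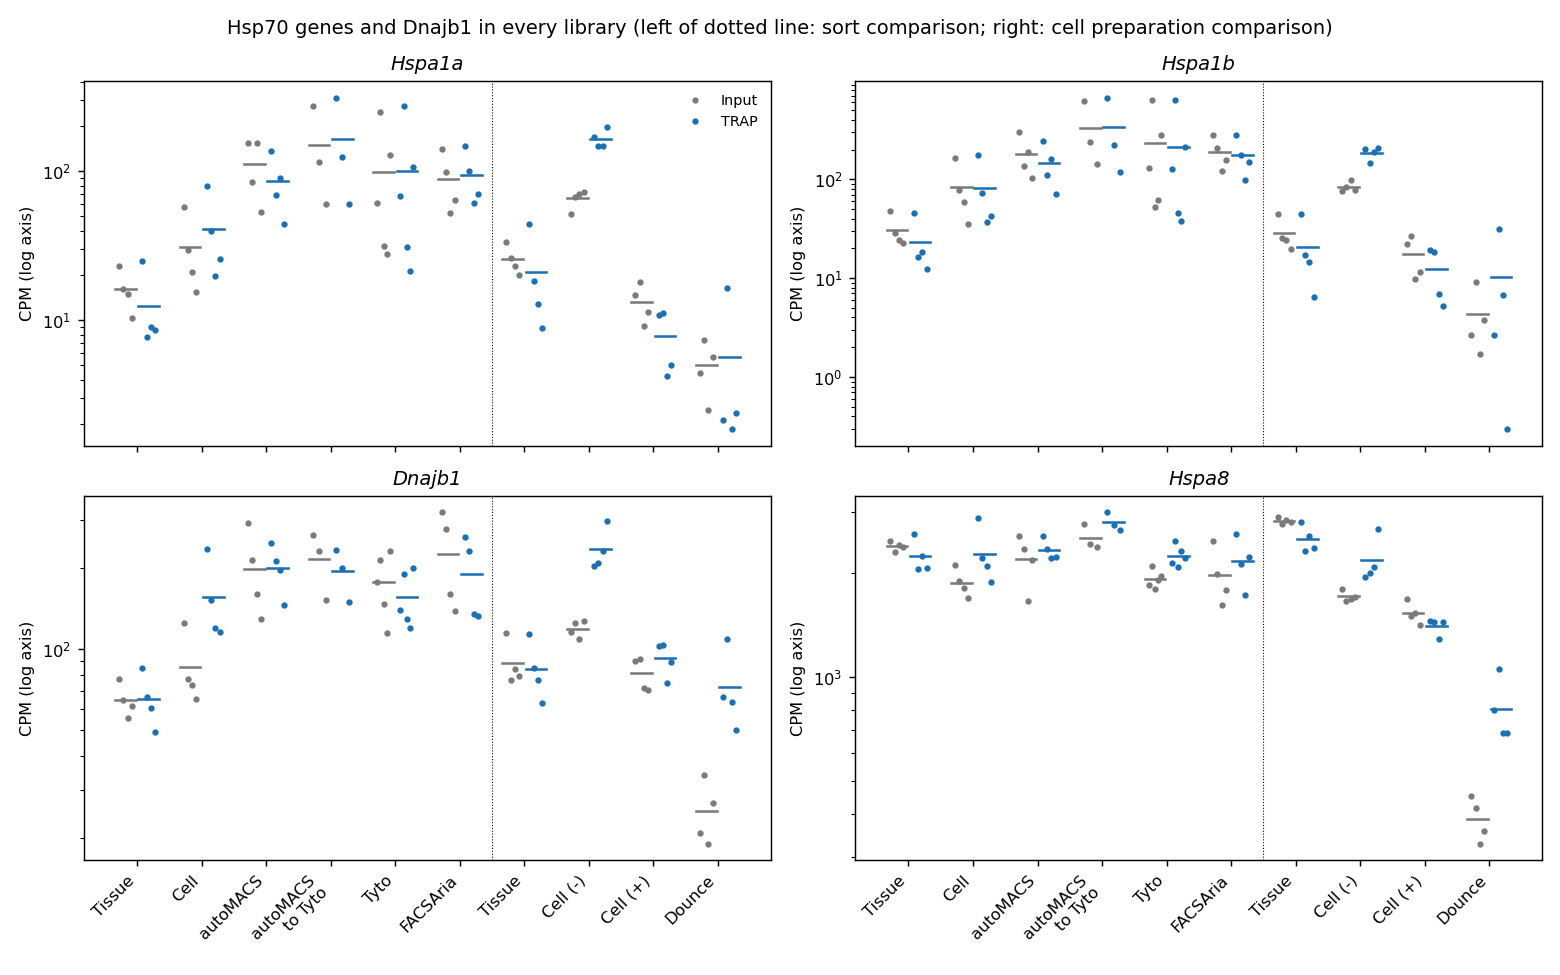
CPM on a log axis of Hspa1a, Hspa1b, Dnajb1 and Hspa8 in each library (points, grey for Input and blue for TRAP) with group means (bars), the 6 preparations of the sort comparison left of the dotted line and the 4 of the cell preparation comparison right of it. Hspa1a reaches 147 to 198 CPM in Cell-TRAP (-) Inhibitors and lies between 4.20 and 11.1 in Cell-TRAP (+) Inhibitors, while Hspa8 in TRAP lies between 1726 and 2997 CPM in the sort comparison and between 687 and 2808 in the cell preparation comparison.

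The inducible Hsp70 genes were higher in cells dissociated enzymatically without inhibitors than in tissue. In the cell preparation comparison, Hspa1a in Tissue-TRAP was at 44.6, 18.3, 12.9 and 8.81 CPM in the 4 mice and in Cell-TRAP (-) Inhibitors at 170.0, 147, 147 and 198 CPM. The groups did not overlap, and 1 Tissue-TRAP library stood above the other 3. The log2 fold change was 2.96 ± 0.49 (± SE, FDR = 2.64e-05). FDR stands throughout for the Benjamini-Hochberg adjusted p-value of edgeR's quasi-likelihood test over all genes, and a gene was called at an FDR below 0.1 with a fold above 2. Hspa1b was at 44.1, 17.3, 14.7 and 6.38 CPM in Tissue-TRAP and at 201, 145, 187 and 208 CPM in Cell-TRAP (-) Inhibitors, a log2 fold change of 3.16 ± 0.63 (FDR = 0.000184). Both Hsp70 genes thus had every Cell-TRAP (-) Inhibitors library above every Tissue-TRAP library. Over the same comparison the summed microglial markers went from a median of 6886 to 36483 CPM in TRAP and from 322 to 7594 CPM in Input, and their part in the rise of these genes and of Dnajb1 was not tested. Including Dnajb1, 3 of the 10 genes were called higher, where 22.3% of all 14723 genes tested were, and 3 were called lower (30.8% of all genes), namely Hsph1, Hsp90aa1 and Hspe1.

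For the matching Inputs, Hspa1a was at 33.8, 26.1, 23.3 and 19.98 CPM in Tissue-Input and at 51.6, 67.7, 70.9 and 73.1 CPM in Cell-Input (-) Inhibitors, and rose by 1.35 ± 0.22 on the log2 scale (FDR = 1.95e-05). For Hspa1b the Tissue-Input values were 44.7, 25.4, 24.2 and 19.9 CPM and the Cell-Input (-) Inhibitors values 75.4, 83.5, 97.7 and 77.7 CPM, with a log2 fold change of 1.55 ± 0.35 (FDR = 0.000784). Groups were again apart for both genes. In Input, 3 genes were called higher, the third being Hspb1, against 25.6% of all genes, and 1 (Hsph1) lower, against 19.1%.

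Both genes were lower when the transcription and translation inhibitors were present. In Cell-TRAP (+) Inhibitors, Hspa1a was at 10.9, 11.1, 4.20 and 5.01 CPM, against the 147 to 198 CPM of the (-) Inhibitors libraries from the same mice, so that the same-animal ratio was 0.0253 to 0.0756 and lower in 4 of 4 animals. Its log2 fold change was -4.41 ± 0.53 (FDR = 4.79e-05). Hspa1b was at 19.3, 18.4, 6.91 and 5.26 CPM with a same-animal ratio of 0.0253 to 0.127 and a log2 fold change of -3.90 ± 0.65 (FDR = 0.00196), which missed the threshold with limma on the authors' log2 values (FDR = 0.107). On the summed counts of both genes the log2 fold change was -4.11. In Input, Hspa1a at 14.8, 17.95, 9.20 and 11.4 CPM fell by a log2 of 2.30 (FDR = 4.09e-06) and Hspa1b at 22.00, 26.4, 9.85 and 11.5 CPM had a log2 fold change of -2.26 ± 0.36 (FDR = 0.00346), each in 4 of 4 animals. In TRAP 0.00679% of all genes were called higher and 0.638% lower, and 3 of these 10 genes (Hspa1a, Hspa1b and Dnajb1) were among the lower. In Input 0% of genes were called higher and 0.311% lower, and Hspa1a and Hspa1b were 2 of those lower. The test of whether the inhibitor effect differed between TRAP and Input called none of the 10 genes against 0.145% of all genes. At an unadjusted p below 0.05 there were 4 of the 10, beside 784 of all 15894 genes. Among the 4 was Hspa1a with a difference of -2.12 ± 0.59 (FDR = 0.255).

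**Figure D2:**
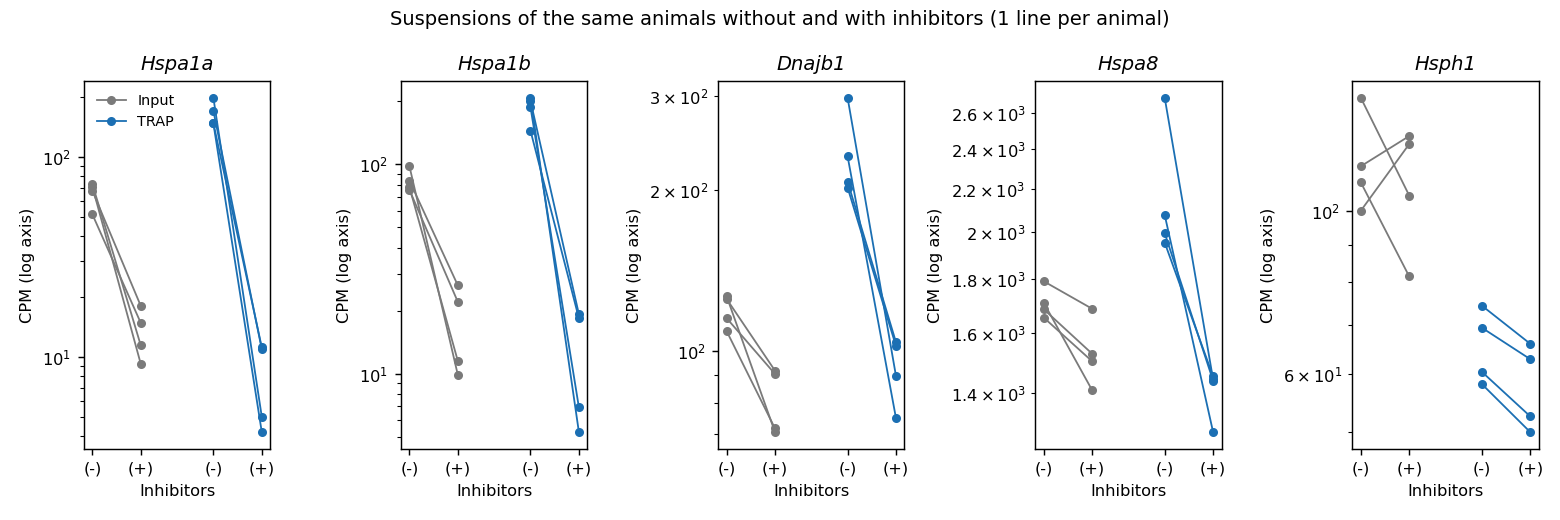
CPM of Hspa1a, Hspa1b, Dnajb1, Hspa8 and Hsph1 without (-) and with (+) inhibitors during dissociation, 1 line per animal, grey for Input and blue for TRAP. Every line of Hspa1a, Hspa1b, Dnajb1 and Hspa8 falls, from 147 to 198 CPM to 4.20 to 11.1 CPM for Hspa1a in TRAP, while those of Hsph1 in TRAP fall to 0.860 to 0.906 of the (-) value.

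Against tissue, the inhibited suspension gave -1.44 ± 0.51 for Hspa1a (FDR = 0.0158), -0.74 ± 0.62 for Hspa1b (FDR = 0.293) and 0.13 ± 0.21 for Dnajb1 (FDR = 0.577) in TRAP. The Hspa1a call rested on 1 library, since without Tissue-TRAP replicate 1 the log2 fold change was -0.77 (FDR = 0.151), and on summed counts it was -1.05 (FDR = 0.113). In this comparison 3 of the 10 genes were called lower (Hspa1a, Hsph1 and Hsp90aa1), against 31.2% of all genes, and none higher, against 21.6%. In Input, Hspb1 was called higher and Hsph1 lower, where 25.5% and 20.1% of all genes were.

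Dounce dissociation at 4 °C gave low values of both genes. Hspa1a in Dounce-TRAP was at 2.13, 16.4, 1.86 and 2.38 CPM, which is 8, 82, 5 and 8 counts, and Hspa1b was at 2.67, 31.1, 6.71 and 0.298 CPM, which is 10, 156, 18 and 1 counts. Replicate 2 stood above the other 3 libraries in both. Against Cell-TRAP (-) Inhibitors, the log2 fold changes were -4.69 ± 0.59 (FDR = 2.66e-06) and -4.04 ± 0.70 (FDR = 9.20e-05), and 5 of the 10 genes were called lower, against 7.99% of all genes, with none higher, against 20.7%. Those 5 were Hspb1, Hspa1a, Hspa1b, Dnajb1 and Hspa8. Against Cell-TRAP (+) Inhibitors, only Hspb1 was called lower (7.60% of all genes) and none higher (21.5%). Hspa1a there had -0.28 ± 0.61 (FDR = 0.727), but without Dounce-TRAP replicate 2 Hspa1a at -1.86 (FDR = 0.0386) and Hspa1b at -2.04 (FDR = 0.0440) were called lower as well. Against Tissue-TRAP, Hspa1a was lower at -1.72 ± 0.58 (FDR = 0.0136) and Hspa1b missed the threshold at -0.89 ± 0.69 (FDR = 0.259), while without replicate 2 it was called at -2.78 (FDR = 0.00495).

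In the sort comparison the inducible genes were less uniform between mice. Hspa1a was at 24.8, 7.76, 9.03 and 8.60 CPM in Tissue-TRAP and at 79.4, 39.7, 19.9 and 25.6 CPM in Cell-TRAP, listed in the same order of animals. Each mouse was higher in Cell, by 2.20 to 5.11 times, but the groups overlapped, with the first mouse the highest in both. The log2 fold change was 1.71 ± 0.76 (FDR = 0.0468). Hspa1b was at 45.5, 16.3, 18.4 and 12.3 CPM in Tissue-TRAP and 177, 72.6, 37.4 and 42.4 CPM in Cell-TRAP, higher in 4 of 4 mice by 2.03 to 4.47 times, with a log2 fold change of 1.83 ± 0.84 (FDR = 0.0531). The Cell-TRAP library of the first mouse also held more neuronal markers (309 CPM, against 106 to 134 in the other 3) and border-associated macrophage markers (1686 against 619 to 711 CPM). Neither call was firm: without Cell-TRAP replicate 1 the values were 1.14 for Hspa1a and 1.10 for Hspa1b and both missed the threshold, and the FDR of the settings that lost a call ran from 0.1003 to 0.251. Of the 10 genes, 4 were called higher (Hspa1a, Hspa1b, Dnajb1 and Hspb1), against 25.0% of all 14953 genes tested, and Hsp90aa1 was called lower, against 29.2%. With DESeq2's size factors the median log2 fold change over all genes moved from -0.01 to -0.34 and the share of calls that were higher from 46.1% to 35.01%, so fold changes between Cell-TRAP and Tissue-TRAP are relative to that choice. In Input, where 28.5% of all genes were called higher and 17.5% lower, 2 of the 10 were called higher and none lower: Hspa1b at 1.45 ± 0.63 (FDR = 0.0455) and Hspb1. Hspa1b lost its call without Cell-Input replicate 1 (0.90, FDR = 0.231).

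Within the sort comparison, the highest levels of the inducible genes were in sorted libraries, with a wide spread between mice. Its unsorted Cell-TRAP libraries held 19.9 to 79.4 CPM of Hspa1a. In the separately normalised cell preparation comparison, unsorted Cell-TRAP (-) Inhibitors held 147 to 198 CPM, above many sorted libraries. In TRAP, Hspa1a was at 137, 69.8, 90.4 and 44.4 CPM in autoMACS, 312, 125 and 59.9 in autoMACS to Tyto, 67.9, 274, 30.8, 21.4 and 106 in Tyto and 147, 100.2, 61.6 and 70.3 in FACSAria. Hspa1b was at 247, 111, 160.3 and 70.7 CPM in autoMACS, 670.3, 223 and 118 in autoMACS to Tyto, 126, 639, 45.3, 37.4 and 211 in Tyto and 283, 175, 99.2 and 150.1 in FACSAria. The spread was widest in Tyto, where the highest Hspa1b library was 17.1 times the lowest. The mean of the 4 sorts was above Tissue-TRAP by 3.11 ± 0.70 for Hspa1a (FDR = 0.000405) and 3.17 ± 0.79 for Hspa1b (FDR = 0.00102). With Dnajb1, 3 of the 10 genes were called higher there, against 25.9% of all genes, and 4 lower, against 36.9%. These 4 were Hspb1, Hsph1, Hsp90aa1 and Hspe1.

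Against Cell-TRAP, the unsorted suspension, the mean of the sorts was higher for Hspa1a by 1.39 ± 0.61 (FDR = 0.0618) and for Hspa1b the value was 1.34 ± 0.69 (FDR = 0.110). Hspa1a was the 1 gene of the 10 called higher, where 0.816% of all genes were, and Hspb1 and Hsph1 were called lower, where 23.5% were. The Hspa1a call was lost without Cell-TRAP replicate 2, 3 or 4 (FDR from 0.121 to 0.169), and Hspa1b was called at 2.05 (FDR = 0.0406) without Cell-TRAP replicate 1. In Input, the mean of the sorts was above Cell-Input by 1.84 ± 0.52 for Hspa1a (FDR = 0.00266) and 1.43 ± 0.54 for Hspa1b (FDR = 0.0181). There 3 genes were called higher (17.1% of all genes) with Dnajb1, and 3 lower (34.7%), namely Hspb1, Hsph1 and Hsp90aa1. Sorted and unsorted Input differ in cell make-up, with microglial markers at a median of 6045 CPM in Cell-Input and 33767 to 37877 in the sorted Inputs, and the part of that in these values was not tested.

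Between the 4 sorts, none of the 10 genes passed in TRAP, by edgeR, by DESeq2 or by limma, where edgeR called 3.97% of all genes. An unadjusted p below 0.05 was found for 6 of the 10 and for 5038 of all 14953 genes. In Input, Hspb1 was called, where 7.40% of all genes were. Tyto against FACSAria called none of the 10 and 0% of all genes in TRAP. In Input it called none of the 10 against 0.432% of genes. DESeq2 and limma called none of the 10 either. The unadjusted p was below 0.05 for 0 of the 10 and 1302 of 14953 genes in TRAP. For Input it was 1 of the 10 and 1300 of 15750 genes. Passing bead-sorted cells through the cartridge sorter, autoMACS to Tyto against autoMACS, called none of the 10 in TRAP against 2.23% of all genes. DESeq2 and limma called none there either. The unadjusted p was below 0.05 for 2 of the 10 and for 4271 of all 14953 genes. The 3 shared mice were each higher after the second sort, by 1.35 to 2.27 times for Hspa1a and 1.67 to 2.72 times for Hspa1b, and with the animal as a block Hspa1b was called at 1.09 (FDR = 0.00127). In Input, Hspb1 was lower at -1.71 ± 0.37 (FDR = 0.0215), 1 gene of the 10 against 1.96% of all genes, and lost its call when only these groups were fitted (FDR = 0.174) or without autoMACS to Tyto Input replicate 2 or 3.

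Dnajb1, the J-domain partner of Hsp70, followed the inducible Hsp70 genes over a smaller range. It was at 114, 84.8, 76.7 and 63.02 CPM in Tissue-TRAP, 202, 207, 231 and 297 in Cell-TRAP (-) Inhibitors, 102, 104, 74.9 and 89.8 in Cell-TRAP (+) Inhibitors and 66.4, 108, 63.4 and 50.02 in Dounce-TRAP. All 4 (-) Inhibitors libraries were above all others, and the remaining groups overlapped. Its log2 fold change was 1.47 ± 0.21 for (-) Inhibitors against tissue (FDR = 4.03e-06), -1.34 ± 0.21 for (+) against (-) Inhibitors (FDR = 0.000868) and -0.22 ± 0.21 for Dounce against tissue (FDR = 0.363). In Input, (-) Inhibitors at 115, 125, 109 and 127 CPM and (+) Inhibitors at 90.6, 91.9, 71.6 and 70.5 CPM gave -0.55 ± 0.15 (FDR = 0.429), lower in 4 of 4 animals at 0.557 to 0.786 but not called.

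In the sort comparison Dnajb1 was at 84.8, 66.6, 60.5 and 49.2 CPM in Tissue-TRAP and 235, 152, 120.0 and 116 in Cell-TRAP, without overlap and 1.98 to 2.77 times higher within each mouse (log2 fold change 1.25 ± 0.28, FDR = 0.000347). This fold came to between 0.78 and 0.95 on the log2 scale, below the threshold of 2-fold, under 5 other settings. The sorts were at 246, 212, 196 and 145 CPM in autoMACS-TRAP, 233, 199.8 and 149 in autoMACS to Tyto, 139, 189, 129, 120.0 and 199.6 in Tyto and 260.3, 231, 134 and 132 in FACSAria. The log2 fold change of their mean was 1.49 ± 0.24 against Tissue-TRAP (FDR = 7.05e-06) and 0.24 ± 0.22 against Cell-TRAP (FDR = 0.373).

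Hspa8, the constitutive Hsc70, was abundant everywhere. It was at 2808, 2311, 2562 and 2364 CPM in Tissue-TRAP, 1953, 1994, 2076 and 2689.7 in Cell-TRAP (-) Inhibitors, 1453, 1439, 1285 and 1443 in Cell-TRAP (+) Inhibitors and 804, 1052, 689 and 687 in Dounce-TRAP. With inhibitors it was lower in 4 of 4 mice, at 0.537 to 0.744 of the (-) value, and the groups did not overlap. The change of -0.63 ± 0.13 (FDR = 0.00881) was under 2-fold and so not called. Dounce-TRAP was lower than both, with a log2 fold change of -1.64 ± 0.13 against tissue (FDR = 1.77e-09) and -1.43 ± 0.13 against (-) Inhibitors (FDR = 3.64e-08). In Input, Dounce at 453, 415, 328 and 357 CPM against tissue at 2909.5, 2772, 2856 and 2812 CPM gave -2.87 ± 0.12 (FDR = 1.61e-13). Between Tissue-TRAP and Cell-TRAP of the sort comparison it was at 2598, 2053, 2243 and 2069.6 CPM and 2882, 2212, 2091 and 1886 CPM, a log2 fold change of 0.02 ± 0.11 (FDR = 0.894), higher in 2 of 4 mice.

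Hsph1, an exchange factor of Hsp70 that also belongs to the Hsf1 program, did not follow the inducible genes and was lower in dissociated cells. Tissue-TRAP of the cell preparation comparison held 287, 212, 205 and 201 CPM, (-) Inhibitors 69.4, 74.4, 58.2 and 60.4 CPM, (+) Inhibitors 62.9, 65.98, 50.03 and 52.6 CPM and Dounce 31.7, 85.1, 39.9 and 48.2 CPM. Every tissue library was above every other, and the remaining 3 groups overlapped. The log2 fold change against tissue was -1.79 ± 0.21 (FDR = 4.52e-07) for (-) Inhibitors, -1.97 ± 0.22 (FDR = 1.42e-07) for (+) Inhibitors and -2.12 ± 0.22 (FDR = 1.09e-07) for Dounce. Between (+) and (-) Inhibitors it was -0.18 ± 0.21 (FDR = 0.950). Input was also lower, at 374, 332, 323 and 322 CPM in tissue and 100.1, 115, 143 and 109 CPM in (-) Inhibitors (-1.53 ± 0.16, FDR = 7.08e-08). Summed neuronal markers fell in the same step from a median of 6343 to 86.6 CPM in TRAP and from 8075 to 509.6 CPM in Input, and their part in the fall of Hsph1 was not tested.

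In the sort comparison Hsph1 was at 278, 199, 195 and 199 CPM in Tissue-TRAP, 219, 96.6, 95.2 and 66.5 in Cell-TRAP, 69.5, 76.1, 46.8 and 75.9 in autoMACS, 71.3, 85.2 and 75.7 in autoMACS to Tyto, 41.1, 44.6, 37.8, 72.1 and 30.2 in Tyto and 58.9, 41.6, 26.7 and 41.1 in FACSAria. The Cell-TRAP library of the first mouse lay within the tissue range and the other 3 below it, and the difference from tissue was -0.87 ± 0.31 (FDR = 0.0162) and not called. That library held the most neuronal (309 CPM) and border-associated macrophage markers (1686 CPM) of its group, and their part was not tested. Hsph1 was called at -1.37 without that library, and at -1.06 (FDR = 0.00312) with the animal as a block. Sorted cells were lower still, with a log2 fold change of -1.96 ± 0.22 against tissue (FDR = 7.95e-08) and -1.09 ± 0.24 against Cell-TRAP (FDR = 0.000624), and the latter came to about -0.60 without Cell-TRAP replicate 1.

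**Figure D3:**
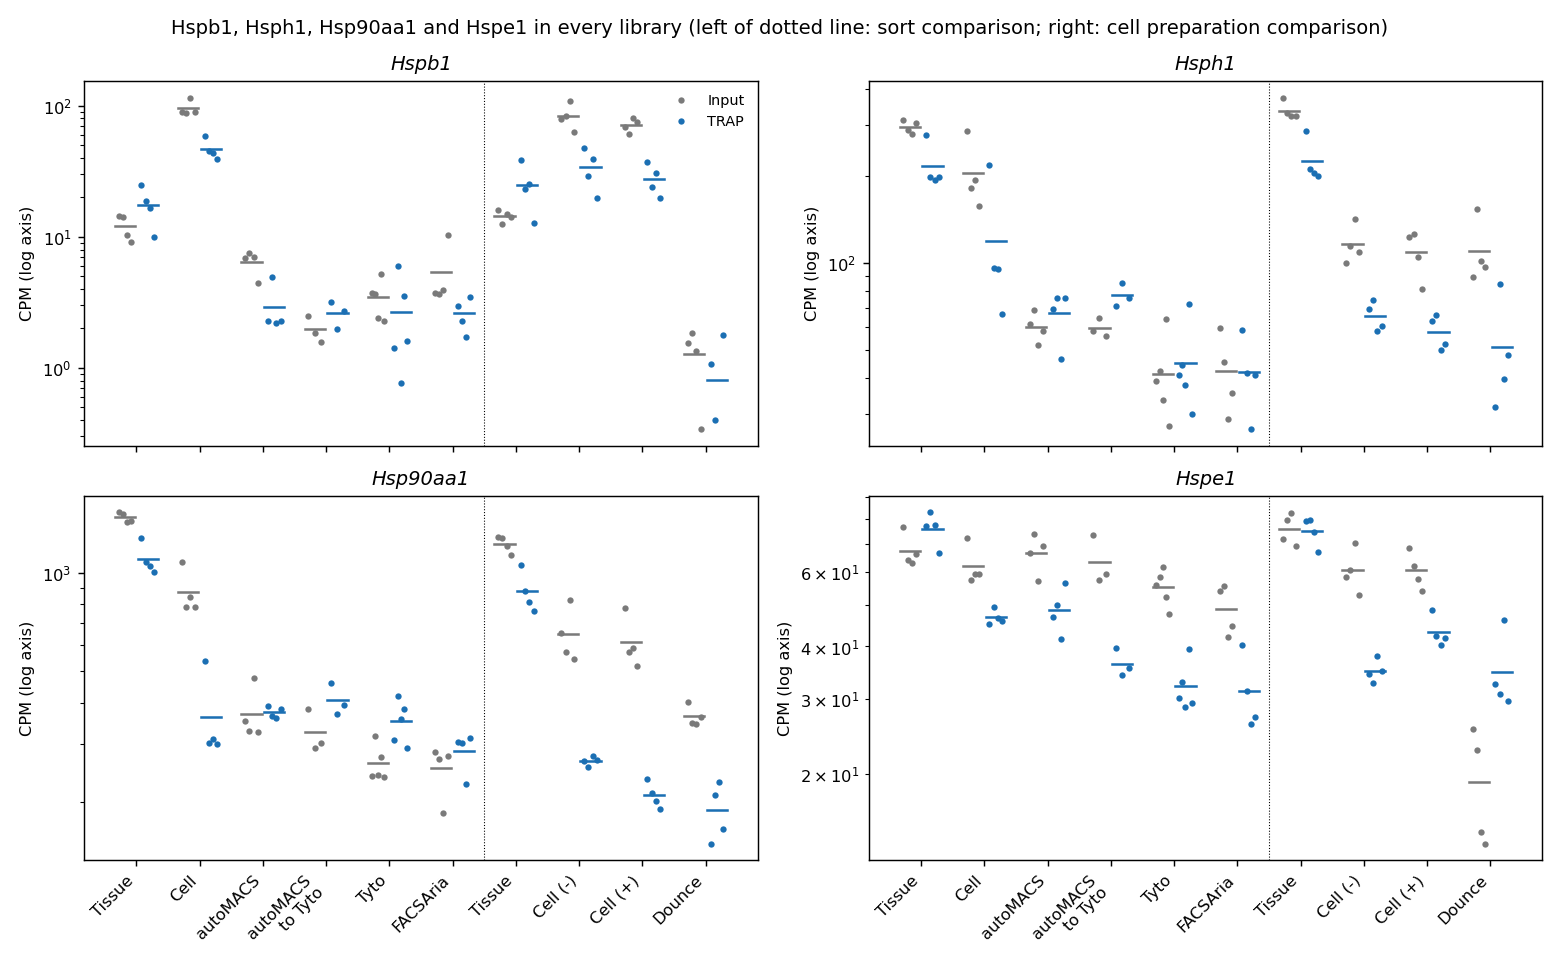
CPM on a log axis of Hspb1, Hsph1, Hsp90aa1 and Hspe1 in each library, drawn as in the plot of the inducible genes. Hsp90aa1 lies at 1002 to 1278 CPM in Tissue-TRAP and 226 to 536 CPM in the other TRAP libraries of the sort comparison, and at 762 to 1055 and 149 to 276 CPM in those of the cell preparation comparison, and the 1 Dounce-TRAP library with 0 CPM of Hspb1 is not drawn.

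Hsp90aa1, the inducible Hsp90, was also lower after dissociation. Tissue-TRAP held 1278, 1075, 1046 and 1002 CPM in the sort comparison and 1055, 875, 814 and 762 CPM in the cell preparation comparison. Cell-TRAP held 536, 303, 310.5 and 299 CPM in the first, and (-) and (+) Inhibitors 267, 255, 276 and 268 CPM and 235, 212, 201 and 190.2 CPM in the second. No dissociated library reached the tissue range. The log2 fold change against tissue was -1.60 ± 0.16 (FDR = 4.35e-09) for Cell-TRAP, -1.72 ± 0.13 (FDR = 4.27e-10) for (-) Inhibitors, -1.64 ± 0.11 (FDR = 3.14e-12) for the mean of the sorts and -2.22 ± 0.13 (FDR = 3.33e-11) for Dounce. Between (+) and (-) Inhibitors it was -0.35 ± 0.12 (FDR = 0.283), lower in 4 of 4 mice and not called. The neuronal markers fell over the same comparisons, as given for Hsph1, and their part was not tested.

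Hsp90ab1, the constitutive form, changed less. It was at 1875, 1577, 1547 and 1455 CPM in Tissue-TRAP and 1968, 1315, 1341 and 1259 CPM in Cell-TRAP of the sort comparison (-0.13 ± 0.14, FDR = 0.387). In the cell preparation comparison, TRAP held 2059, 1636, 1689 and 1415 CPM in tissue, 1194, 1226, 1263 and 1358 CPM with (-) Inhibitors, 1127, 1151, 1095 and 1105 CPM with (+) Inhibitors and 613, 867, 656 and 655 CPM with Dounce. Every dissociated library was below every tissue library, but Dounce against tissue, at -1.28 ± 0.11 (FDR = 6.67e-09), was the 1 TRAP comparison of the gene past 2-fold.

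Hspb1, the small heat shock protein Hsp27, was higher in the Input of enzymatically dissociated cells than of tissue, did not pass the test for inhibitors and was low in every sorted library. In the sort comparison, Input was at 14.3, 14.1, 10.4 and 9.19 CPM in tissue and 89.1, 88.2, 115 and 89.9 CPM in Cell, 6.22 to 11.1 times higher within each mouse (2.99 ± 0.26, FDR = 6.94e-10). In TRAP the values were 25.00, 18.6, 16.7 and 9.88 CPM and 58.9, 45.3, 43.9 and 38.99 CPM (1.42 ± 0.35, FDR = 0.000960). All sorted libraries lay between 0.766 and 6.03 CPM in TRAP and between 1.59 and 10.4 in Input. For the mean of the sorts the log2 fold change was -4.12 ± 0.26 against Cell-TRAP (FDR = 8.65e-12), -4.59 ± 0.18 against Cell-Input in Input (FDR = 1.03e-16) and -2.70 ± 0.28 against Tissue-TRAP (FDR = 6.06e-09).

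In the cell preparation comparison, Hspb1 in Input was at 15.97, 12.5, 15.1 and 14.1 CPM in tissue, 79.1, 83.1, 109 and 62.9 CPM with (-) Inhibitors and 68.8, 61.2, 80.9 and 75.4 CPM with (+) Inhibitors. The log2 fold change of (-) Inhibitors against tissue was 2.53 ± 0.18 in Input (FDR = 1.62e-10) and 0.45 ± 0.32 in TRAP (FDR = 0.217). Between (+) and (-) Inhibitors it was -0.22 ± 0.16 (FDR = 1.00) in Input and -0.29 ± 0.32 (FDR = 0.948) in TRAP, and with the inhibitors present it was still higher than tissue in Input, at 2.31 ± 0.18 (FDR = 5.60e-10). Dounce held 4, 2, 0 and 6 counts in TRAP and 15, 18, 7 and 2 counts in Input, and its fitted log2 fold change in TRAP against (+) Inhibitors was -5.07 ± 0.53 (FDR = 2.98e-07). Markers of several cell types changed over the same groups. In Input of the sort comparison, the median from tissue to Cell went from 61.4 to 1534 CPM for endothelial, from 22.3 to 173 for ependymal, from 3461 to 9490.1 for astrocyte and from 3742 to 13385 for oligodendrocyte markers. In the sorted Inputs the median was 88.5 to 155 CPM for endothelial markers, above the tissue value. It was below tissue for the other types. The 3 ependymal genes were at 0.147 to 0.940 CPM, astrocyte markers at 206 to 317 and oligodendrocyte markers at 212 to 409. Tmem212 and Mog were at 0 throughout autoMACS to Tyto Input. In TRAP, endothelial markers were at 156 CPM in tissue, 840.4 in Cell and 97.1 to 129 in the sorts. In the cell preparation comparison, endothelial markers went from 202 CPM in tissue to 781 with (-) Inhibitors in TRAP and from 76.6 to 1663 in Input. They were at 38.9 and 69.5 CPM in Dounce Input and TRAP. The part of any of these cell types in the Hspb1 values was not tested.

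**Figure D4:**
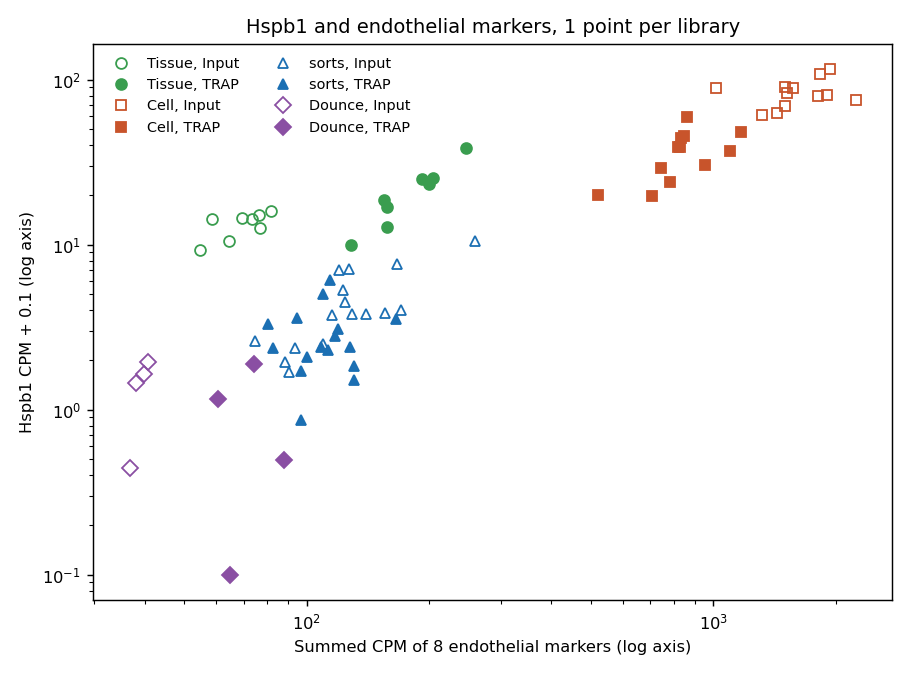
Hspb1 (CPM + 0.1) against the summed CPM of 8 endothelial marker genes, both on log axes, 1 point per library, open for Input and filled for TRAP, with green circles for Tissue, orange squares for Cell, blue triangles for the sorts and purple diamonds for Dounce. Of Hspb1, Cell libraries hold 38.99 to 115 CPM and sorted libraries 0.766 to 10.4 CPM in the sort comparison, and Cell libraries 19.7 to 109 CPM and Dounce libraries 0 to 1.84 CPM in the cell preparation comparison.

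Of the mitochondrial pair, Hspe1 was lower in dissociated cells than in tissue in TRAP and both genes were lower in Dounce-Input. Hspd1 (Hsp60) was at 221, 173, 179 and 163 CPM in Tissue-TRAP, 136, 141, 143 and 147 with (-) Inhibitors, 131, 129, 126 and 119 with (+) Inhibitors and 96.00, 100.4, 101 and 86.6 with Dounce, and was called in no TRAP comparison. It was at 218, 219, 220.3 and 191 CPM in Tissue-Input and 76.2, 80.2, 92.4 and 62.7 in Dounce-Input. Hspe1 (Hsp10) was at 71.7, 79.7, 82.6 and 69.05 CPM in Tissue-Input and 25.5, 22.7, 14.6 and 13.7 in Dounce-Input (-1.96 ± 0.16, FDR = 1.34e-09). In TRAP it was at 79.3, 79.6, 74.5 and 66.9 CPM in tissue and 34.5, 32.7, 37.99 and 34.96 CPM with (-) Inhibitors, without overlap (-1.10 ± 0.13, FDR = 3.21e-07). With (+) Inhibitors it was at 48.7, 42.3, 40.3 and 41.9 CPM, 1.06 to 1.41 times the (-) value and higher in 4 of 4 mice, though not called at 0.31 ± 0.13 (FDR = 0.436). None of the other genes of the 10 was higher with inhibitors in every mouse in TRAP. The share of all genes with that pattern was not counted. For the mean of the sorts against Tissue-TRAP the log2 fold change was -1.05 ± 0.09 for Hspe1 (FDR = 9.56e-12) and -0.33 ± 0.08 for Hspd1 (FDR = 0.000423, under 2-fold).

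**Figure D5:**
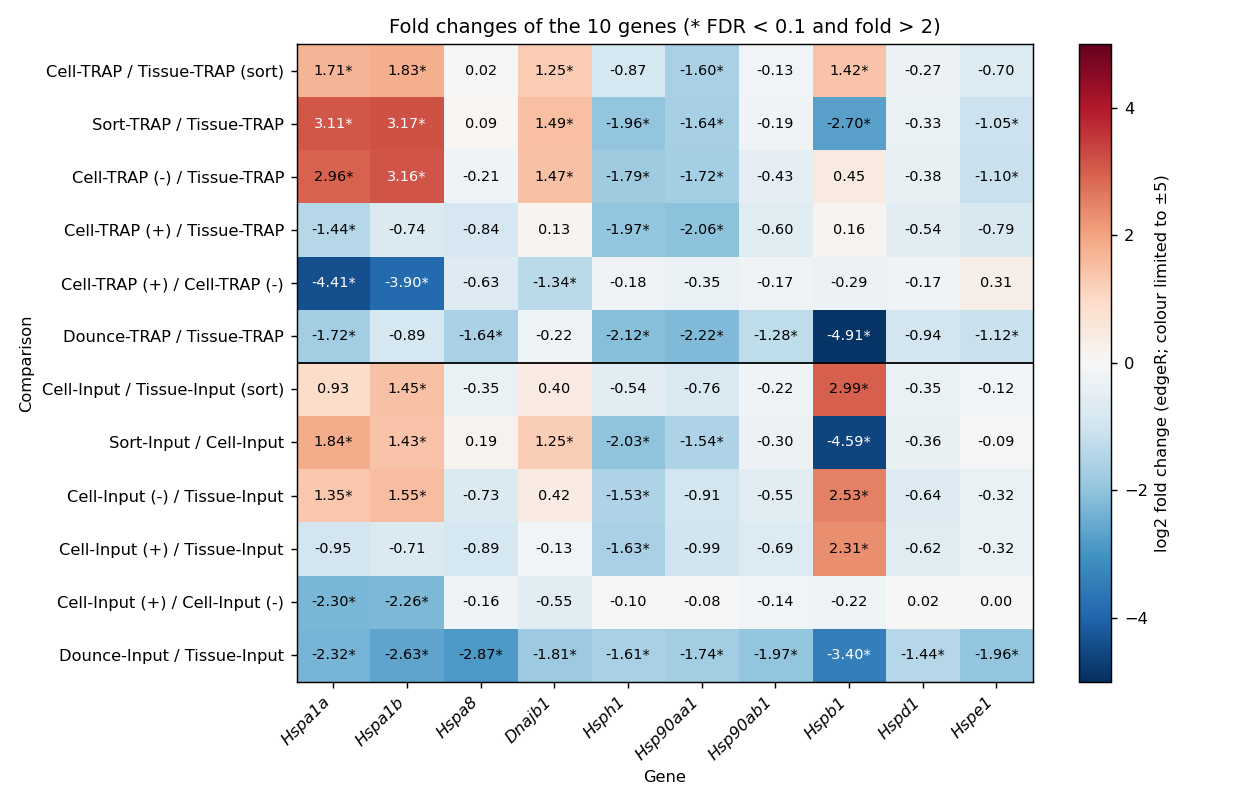
Log2 fold changes of the 10 genes (columns) in 12 comparisons (rows), 6 of TRAP above the line and 6 of Input below it, on a colour scale from -5 to 5, with a star where FDR was below 0.1 and the fold above 2. Hspa1a and Hspa1b are starred higher for Cell, the sorts and Cell (-) Inhibitors against Tissue-TRAP and starred lower for (+) against (-) Inhibitors, and all 10 genes are starred lower for Dounce-Input against Tissue-Input.

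Dounce-Input was low for the whole group. All 10 genes were called lower than in Tissue-Input, from -1.44 ± 0.12 for Hspd1 to -3.40 ± 0.26 for Hspb1, where 21.4% of all genes were called lower and 28.7% higher. In TRAP, 7 were called lower than in tissue, against 27.1% of all genes, and none higher, against 23.2%. The 3 not called were Hspa1b, Dnajb1 at -0.22 ± 0.21 and Hspd1 at -0.94 ± 0.10. Against (-) Inhibitors in Input, 7 were called lower (28.0% of all genes) and none higher (28.8%), and against (+) Inhibitors in Input 7 were called lower (27.9%) and none higher (29.0%). Dounce-Input held neuronal markers at a median of 3540 CPM and microglial markers at 2500 CPM, against 8075 and 322 CPM in Tissue-Input. RNA integrity also differed, being recorded by the study as lower in Dounce-Input than in Tissue-Input. The study further reported read coverage with more 3′ bias in Tissue and Dounce than in (-) and (+) Inhibitors, in Input and in TRAP. Contrasts of (-) or (+) Inhibitors with Tissue or Dounce carry that difference. The part of cell make-up, integrity or coverage in these values was not tested.

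TRAP against Input asks which RNAs sit on the tagged ribosomes in excess of the homogenate. In tissue, none of the 10 genes was called in the sort comparison, where 11.0% of all genes were. There the unadjusted p was below 0.05 for 2 of the 10 and for 5619 of all 15825 genes. In tissue of the cell preparation comparison, Hspb1 was called at 1.01 ± 0.28 (FDR = 0.00752), against 10.5% of all genes. In the unsorted suspension of the sort comparison, Dnajb1 was called at 1.15 ± 0.29 (FDR = 0.000523), against 47.6% of all genes. With (-) Inhibitors, 5 were called against 47.3%: Hspa1a at 1.36 ± 0.39 (FDR = 0.00311), Hspa1b at 1.18 ± 0.53 (FDR = 0.0484) and Dnajb1 at 1.01 ± 0.20 (FDR = 3.63e-05) above Input, and Hsp90aa1 at -1.25 ± 0.14 and Hspb1 at -1.27 ± 0.27 below it. The median over all genes was -0.42 in that comparison. With (+) Inhibitors, 2 were called, Hsp90aa1 at -1.53 ± 0.14 and Hspb1 at -1.35 ± 0.27, against 45.5% of all genes, and the all-gene median was -0.39. In Dounce, 4 were called higher in TRAP against 47.4%: Dnajb1 at 1.89 ± 0.22, Hspa8 at 1.43 ± 0.12, Hspe1 at 1.20 ± 0.16 and Hspa1b at 1.66 ± 0.73 (FDR = 0.0473), the last of which fell to 0.50 (FDR = 0.672) without Dounce-TRAP replicate 2. With the animal as a block, Hsp90aa1 (-0.89) and Hspb1 (-0.96) with (-) Inhibitors, Hspb1 in tissue (0.94) and Hspa1b in Dounce (0.91, FDR = 0.302) were not called, and Hsp90aa1 was called in Cell of the sort comparison (-1.02).

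In the sorted preparations, where Input was itself mostly microglial, Hspb1 was called in autoMACS at -1.12 ± 0.38 (FDR = 0.0218), 1 of the 10 against 17.4% of all genes. None was called in autoMACS to Tyto (5.35% of all genes), in Tyto (16.9%) or in FACSAria (10.2%). Of the 10 genes, 3, 5 and 3 had an unadjusted p below 0.05 in these preparations, in that order. Of all 15825 genes, 4860, 7490 and 5725 did. The rise of Hspa1a from tissue to (-) Inhibitors was larger in TRAP than in Input, with a difference of 1.42 ± 0.57 on the log2 scale (FDR = 0.0363), and that of Hspb1 was smaller, with -2.27 ± 0.39 (FDR = 1.25e-05). These were 2 of the 10 genes against 38.5% of all genes, whose median difference was -0.61. Hspa1b had a difference of 1.42 as well and was not called. In the sort comparison, the difference for Cell against tissue was called for Hspb1 at -1.49 ± 0.45 (FDR = 0.00464), 1 of the 10 against 35.1% of all genes, and was 0.86 ± 1.00 for Hspa1a (FDR = 0.471). With DESeq2's size factors the all-gene median of the latter test moved from -0.29 to -0.61.

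The wider chaperone network was read from 68 further genes (other Hsp70 and Hsp110 members, J-domain proteins, co-chaperones of Hsp70 and Hsp90, the TRiC chaperonin, prefoldin, small heat shock proteins and regulators), of which 64 to 66 were tested. With inhibitors, 1 of 65 was called in TRAP, Hspa1l at -2.58, a testis-enriched Hsp70 paralog next to Hspa1a, where 0.638% of all genes were called lower. The list median was -0.07 in TRAP, beside -0.03 for all genes.

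For (-) Inhibitors against tissue in TRAP, 2 of the 65 network genes were called higher, Hspa13 at 1.35 and Dnajb14 at 1.06, both of the endoplasmic reticulum, and 17 lower, where 22.3% of all genes were called higher and 30.8% lower. The 5 lowest were Hspa12a at -3.76, Hspa4l at -2.46, Pfdn1 at -1.99, Stub1 at -1.70 and Dnajb5 at -1.62. The list median was -0.41, beside -0.13 for all genes. Cell-TRAP against Tissue-TRAP of the sort comparison had 6 of 64 higher, led by Fkbp5 (a glucocorticoid-induced Hsp90 co-chaperone) at 2.33, Hspa13 at 1.66, Dnajb14 at 1.65, Hspa12b at 1.38 and Chordc1 at 1.27. It had 15 lower, led by Hspa12a at -3.92, Hspa1l at -2.68, Hspa4l at -1.73, Pfdn1 at -1.68 and Stub1 at -1.63. Over all genes 25.0% were called higher and 29.2% lower, and the list median was -0.29, beside -0.01.

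The mean of the sorts against Cell-TRAP had none of 64 network genes higher and 7 lower, where 0.816% of all genes were called higher and 23.5% lower. The 5 lowest were Hspa12b at -6.19, Hspb8 at -5.48, Serpinh1 (the collagen chaperone Hsp47) at -5.40, Cryab at -3.33 and Fkbp5 at -1.53. Across the same groups the median of the endothelial markers was 840 CPM in Cell-TRAP and 97.1 to 129 in the sorts, and their part was not tested. Dounce-Input against Tissue-Input had 38 of 66 lower, led by Cct7 at -2.79, Pfdn1 at -2.79, Hspb6 at -2.74, Ahsa1 at -2.42 and Hspa2 at -2.39, and 2 higher, Hspb7 at 3.11 and Hsf2 at 1.22. Over all genes 21.4% were called lower and 28.7% higher, and the list median was -1.26, beside 0.10. In TRAP, Dounce against tissue had 30 of 65 lower and 3 higher, against 27.1% and 23.2% of all genes, with a list median of -0.89 beside -0.06.

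The genes whose pattern over the 10 TRAP groups was most like that of a chaperone were found among 10791 expressed genes by Pearson correlation of group means, each comparison centred on its own Tissue-TRAP. These are descriptions over 10 points that share libraries and a tissue reference. For Hspa1a they were Fosb (r = 0.98), Egr1 (0.97), Jund (0.97), Fos (0.96) and Cited2 (0.95). Fosb, Egr1 and Fos are immediate early genes, transcription factors induced within minutes of a stimulus. For Dnajb1 they were Rilpl2 (0.99), Dusp1 (0.99), Jun (0.99), Fos (0.99) and Ier2 (0.98), of which Dusp1, Jun, Fos and Ier2 are also immediate early genes. For Hspa8 they were Cct3, Mad1l1, Pfkl, Calcoco1 and Pmpca, with r from 0.96 to 0.97, and Cct3 is a subunit of the TRiC chaperonin. For Hsph1 they were Gpx3, Gpd1, Tmcc1, Mras and Dctn3, with r from 0.96 to 0.97. Among the 10 genes themselves the pattern of Hspa1a was close to that of Hspa1b (r = 0.996) and Dnajb1 (r = 0.96), and not to that of Hsph1 (r = -0.22), Hsp90aa1 (r = -0.10) or Hspb1 (r = -0.04).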

How the data were processed

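The expected counts per gene used here were deposited by the authors as 2 tables, 1 per comparison, with their log2 values after DESeq2 normalization beside them. The authors trimmed adapters and low-quality bases from paired-end reads of directional poly(A) libraries, aligned them to mm10 in Strand NGS, removed duplicates and counted them per gene. An earlier partial table of the cell preparation comparison was not used. All value columns were mapped to a library (0 unmapped), and 23 date-like symbols per table were restored.

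Expected counts were rounded, scaled by TMM and tested with edgeR 4.0.16 (quasi-likelihood, robust) in R 4.3.3, within TRAP and within Input of each table over all groups, and over both fractions for TRAP against Input. Genes needed more than 5 counts in every library of at least 1 group, which left 14953, 15750, 14723 and 15753 genes (15825 and 15894 in the joint fits). FDR is the Benjamini-Hochberg adjusted p-value over all genes tested, and a call needs an FDR below 0.1 and a fold above 2. Levels are TMM-scaled CPM of the same fits, and CPM per kb uses the exon length of the annotation. Counts were also simulated, with the same dispersion for every gene and no difference between groups apart from the genes changed. They were scored at an FDR below 0.1 in the right direction, without the fold threshold of a call. For (+) against (-) Inhibitors in TRAP (14504 genes), 87% of 100 genes changed 2-fold and 100% of 100 changed 4-fold were recovered. There, 26 unchanged genes also fell below that FDR. Of 2-fold changes, 75% were recovered for TRAP against Input in Dounce and 46% for the fraction difference of (-) Inhibitors against tissue. These had 15531 genes each, with 12 and 20 unchanged genes below that FDR.

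The 10 genes, the chaperone network list and the marker lists were chosen with earlier results of these data known. Named from the network are the 5 called higher and the 5 called lower with the largest change in a comparison, and from the likeness search the 5 nearest genes. Libraries were paired by the animal in their labels, not by replicate number, which can differ between preparations of 1 mouse. Deviations of the 2 fractions of a mouse from their group means correlated between 0.03 and 0.58 except for 1 autoMACS mouse (-0.22), those of Tissue and Cell between 0.06 and 0.20 in TRAP and between -0.10 and 0.03 in Input, and those of (-) and (+) Inhibitors between 0.24 and 0.59 in TRAP and between -0.03 and 0.17 in Input. Alternatives were DESeq2 1.42.0, its size factors in edgeR, limma 3.58.1 on the authors' log2 values, a minimum of 10 counts in every sample, no filter, only the groups compared, a replicate block, summed Hspa1a and Hspa1b, and leaving out each replicate.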

Additional observations from a re-analysis of the deposited data

Results flagged for a closer look

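In 19 of 180 groups of 4 or 5 libraries, the highest or lowest library lay far from its nearest neighbour relative to the range of its group, where chance gives about 1 group in 20. Several sat in the first mouse of the sort comparison, which was highest in Cell-TRAP for Hsp90aa1 (536 CPM) and Hsp90ab1 (1968 CPM), in Cell-Input for Hspe1 (72.0 CPM) and in Tissue-TRAP for Hspa1a (24.8 CPM) and Hsph1 (278 CPM, and 287 CPM in the Tissue-TRAP library of the cell preparation comparison). Dounce-TRAP replicate 2 was highest for Hspa1a (16.4 CPM) and Hsp90ab1 (867 CPM), and replicate 3 for Hspe1 (46.2 CPM). FACSAria replicate 3 was lowest for Hsp90aa1 in TRAP (226 CPM) and Input (185 CPM).

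The remaining libraries that stood apart were Tyto-TRAP replicate 2 for Hspa1b (639 CPM), Cell-TRAP (+) Inhibitors replicate 3, lowest for Hspa8 (1285 CPM), Cell-TRAP (-) Inhibitors replicate 4, highest for Hspa8 (2689.7 CPM), and Cell-Input replicate 3, FACSAria-Input replicate 4 and autoMACS-TRAP replicate 2, each highest for Hspb1 (115, 10.4 and 4.92 CPM). That FACSAria-Input library also held the most ependymal (44.2 CPM, against 0 to 0.193 in the other 3), endothelial (259 against 129 to 171 CPM) and oligodendrocyte markers (426 against 223 to 241 CPM), whose part was not tested. For Hspd1 these were Tissue-Input replicate 4 of the cell preparation comparison, the lowest (191 CPM), and Tyto-Input replicate 3, the highest (129.6 CPM).

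The change from tissue to dissociated cells differed between TRAP and Input by an interaction test for Hspa1a and Hspb1. For (-) Inhibitors against tissue, which were different mice, the difference was 1.42 on the log2 scale for Hspa1a and -2.27 for Hspb1. It was also 1.42 for Hspa1b, which was not called. For Cell against tissue of the sort comparison, from the same mice, it was -1.49 for Hspb1 and was not called for Hspa1a.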

How the results depend on the processing

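No call of any of the 10 genes changed direction. Over the settings other than leaving out replicates, 2437 of 2501 values of single genes kept their side of the threshold, 27 lost a call and 37 gained one, and over those that left out replicates it was 3327 of 3410, with 40 lost and 43 gained. A minimum of 10 counts in every sample removed low-count genes of the 10 from the test, which by construction lowered the number called for (+) against (-) Inhibitors to 1 in TRAP and 1 in Input, for (+) Inhibitors against tissue in Input to 1, for (-) Inhibitors against tissue in Input to 2, for Dounce-TRAP against (-) Inhibitors to 2 and against (+) Inhibitors to 0, for TRAP against Input with (+) Inhibitors to 1, with (-) Inhibitors to 2 and in tissue of the cell preparation comparison to 0, and for the fraction difference of (-) Inhibitors against tissue to 0, while in Cell of the sort comparison TRAP against Input and its fraction difference gave 2 each. DESeq2's size factors gave 4 for (+) Inhibitors against tissue in Input (DESeq2 itself also 4), 2 for TRAP against Input in Cell of the sort comparison and 2 for its fraction difference, 0 in tissue of the cell preparation comparison and 4 for the fraction difference of (-) Inhibitors. Summing Hspa1a and Hspa1b gave 1 of 9 for (+) against (-) Inhibitors in Input, and limma, like leaving out the first mouse from Tissue and Cell (chosen after seeing the data), gave 1 for Cell-Input against Tissue-Input. With the replicate block, TRAP against Input called 3 with (-) Inhibitors, 2 in Cell of the sort comparison and 0 in tissue of the cell preparation comparison, and single calls changed under the block only where the report gives the blocked value. Leaving out single replicates gave 2 to 4 for (+) Inhibitors against tissue in Input, 1 to 2 for Cell-Input and 3 to 5 for Cell-TRAP against tissue, 1 to 3 for Dounce-TRAP against (+) Inhibitors, 0 to 1 between the sorts in TRAP, 3 to 5 for TRAP against Input with (-) Inhibitors, 1 to 2 in Cell of the sort comparison, 0 to 1 in FACSAria, autoMACS and tissue of the cell preparation comparison, and 2 to 4 for the fraction difference of (-) Inhibitors. The cause was not tested for those that rest on a scaling or a tool. The all-gene median of sorts against Tissue-TRAP moved from -0.14 to -0.48 with DESeq2's size factors (share of higher calls 41.2% to 32.4%), and that of TRAP against Input in Cell from -0.07 to -0.48 (35.2% to 21.0%). Dounce-TRAP was the shallowest group, and 1 to 18 counts stand behind most of its Hspa1a, Hspa1b and Hspb1 values.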
